A study of Mus musculus with 14 samples.

Results

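Brain RNA of MyTrMaSt null mice was compared with that of WT mice, both injected with PBS only, which gives the genotype difference before any disease is induced. The comparison holds 6 of the 14 libraries of the series, 3 of MyTrMaSt + PBS and 3 of WT + PBS, chosen by their labels alone, and 11439 tested genes on the autosomes of 11852 tested in all. MyTrMaSt null mice lack Myd88, Ticam1 (TRIF), Mavs and Tmem173 (STING) in every cell (Myd88-/-, Trif-/-, Mavs-/-, Tmem173-/-), and the strain background of the null mice is not given in the sources used here. WT mice were C57BL/6JOlaHsd, bought from a supplier and not stated to be littermates. All mice were 19 days old and had received PBS by daily intraperitoneal injection from the second postnatal week, and each library came from a hemibrain of 1 mouse. The other 8 libraries of the series (3 WT + CBE and 5 MyTrMaSt + CBE) came from mice given 100 mg/kg of conduritol B-epoxide (CBE), an inhibitor of acid beta-glucosidase, and are used below in the shared estimate of the spread, to see whether a genotype difference was met again in other mice of the same 2 genotypes, and to test whether it differed between treatments.

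The 4 deleted genes encode adaptors that carry signals from pattern recognition receptors, the sensors of microbial products and of misplaced nucleic acids. MyD88 and TRIF act below the Toll-like receptors, MAVS below the RNA sensors RIG-I and MDA5, and STING below the DNA sensor cGAS. All these routes lead to kinases and transcription factors that switch on type I interferon and inflammatory cytokines, and interferon in turn raises a large set of interferon-stimulated genes (ISGs), which resting tissue also makes at a low level.

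A short sequence, the interferon-stimulated response element, is bound by interferon regulatory factors and by ISGF3, and it is shown here in the DNA before the start of ISGs whose levels are given below. The letters GAAANNGAAA were searched on both strands (as TTTCNNTTTC on the other) in the 250 bases before each annotated start, from RefSeq on GRCm38.p6, the build of the files. Of 32851 such windows, 2.98% held a match. Counted by gene, with any of its windows, a match was held by 3.17% of 9031 tested genes, and of the 19 tested ISGs with a window under their symbol, 5 did (26.3%). Matches are in capitals, and overlapping matches run together. Isg15 encodes a ubiquitin-like protein, Ifit1 an RNA-binding antiviral protein and Oasl2 a protein of the oligoadenylate synthetase family. Isg15 (chr4:156200819-156201068 (minus strand)) has 3 overlapping matches that begin 78, 72 and 66 bases before the start, Ifit1 (chr19:34640639-34640888 (plus strand)) has 2 that begin 104 and 85 bases before it, and Oasl2 (chr5:114896684-114896933 (plus strand)) has none of these letters in its window.
Isg15: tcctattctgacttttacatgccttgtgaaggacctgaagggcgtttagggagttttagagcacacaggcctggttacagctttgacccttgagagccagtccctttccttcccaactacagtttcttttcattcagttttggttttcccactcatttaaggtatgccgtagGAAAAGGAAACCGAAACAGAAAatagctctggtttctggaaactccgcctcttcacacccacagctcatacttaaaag
Ifit1: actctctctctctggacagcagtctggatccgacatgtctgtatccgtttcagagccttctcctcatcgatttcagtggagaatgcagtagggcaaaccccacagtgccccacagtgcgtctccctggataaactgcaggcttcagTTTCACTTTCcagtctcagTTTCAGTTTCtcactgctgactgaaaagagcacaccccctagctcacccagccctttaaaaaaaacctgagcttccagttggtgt
Oasl2: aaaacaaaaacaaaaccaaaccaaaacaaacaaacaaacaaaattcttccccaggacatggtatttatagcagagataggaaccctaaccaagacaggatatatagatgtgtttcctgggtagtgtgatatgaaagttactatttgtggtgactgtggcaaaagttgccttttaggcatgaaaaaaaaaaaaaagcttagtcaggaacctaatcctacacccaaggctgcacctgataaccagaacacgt

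The PBS libraries held 1290616 to 3704691 counts. WT + PBS replicate 1 had the lowest total and stood apart: its log2 CPM correlated at 0.883 and 0.884 with the other 2 WT + PBS libraries, which correlated at 0.979 with each other, and 45S ribosomal RNA (Rn45s) was at 957 CPM in it against 64.5 to 190 CPM in the other 5. The calls are therefore also given without it. The 2 genotypes differed in sex as well. Xist, the X-inactivation RNA, had 0 counts in all 3 WT + PBS libraries and 32 to 46 in the 3 MyTrMaSt + PBS libraries, so genotype and sex cannot be told apart in this comparison, and genes of the X and Y chromosomes are left out. Both CBE groups were mixed, with more than 10 counts of Xist in 2 of 3 WT + CBE and 4 of 5 MyTrMaSt + CBE libraries. Neuronal, oligodendrocyte and astrocyte markers were present in all PBS libraries, with Snap25 at 1251 to 2439 CPM, Mog at 357 to 557 CPM and Slc1a2 at 1657 to 2348 CPM.

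Few genes passed the edgeR test between the untreated genotypes, while DESeq2 passed 255 autosomal genes, 109 of them at least 2-fold. With the edgeR quasi-likelihood test over all 14 libraries and Benjamini-Hochberg adjustment, 22 autosomal genes (0.192% of those tested) had an adjusted p below 0.05, 4 higher (0.035%) and 18 lower (0.157%) in MyTrMaSt + PBS, and 19 of them (0.166%) differed at least 2-fold and are called DEGs here, 4 higher and 15 lower. Without adjustment, 1920 genes (16.8%) had p below 0.05, 5.93% higher and 10.9% lower. In all 22 genes the 3 MyTrMaSt libraries lay outside the range of the 3 WT libraries, which held for 20.1% of all tested genes (9.83% higher and 10.3% lower). Without WT + PBS replicate 1, 43 autosomal genes (0.376%) passed, 32 of them lower, and all 19 DEGs still passed the test, and 12 of them still differed at least 2-fold. The number of DEGs moved with single libraries: it was 21 without WT + PBS replicate 1, 294 without replicate 2 and 59 without replicate 3 of WT + PBS, and 9, 5 and 8 without replicates 1, 2 and 3 of MyTrMaSt + PBS. When only the 6 PBS libraries were fitted, 2 genes passed, Gdpd3 among them, and with the Xist level as a covariate 3 passed, Gdpd3 and Slx1b among them. By a test against a 2-fold change, 3 genes passed, again with Gdpd3 and Slx1b among them.

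**Figure D1:**
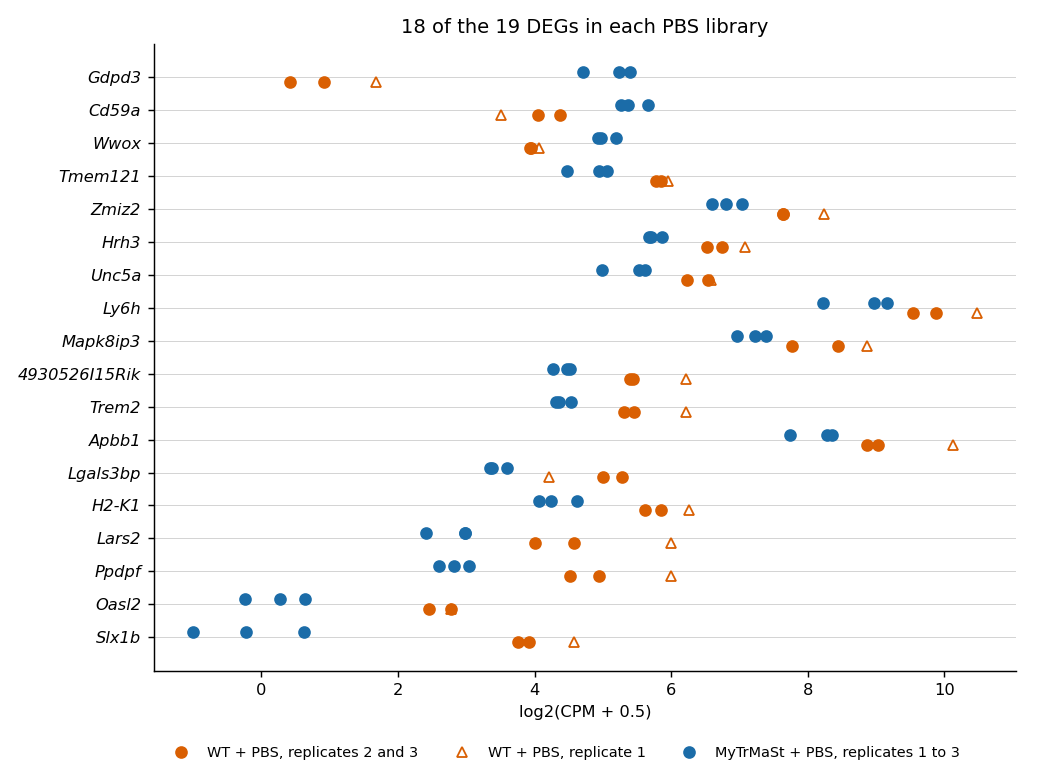
Level of 18 of the 19 DEGs in the 6 PBS libraries, on a log2(CPM + 0.5) axis, with WT + PBS replicate 1 as an open triangle. The libraries of the genotypes do not overlap for any of the genes shown, and Gdpd3 and Slx1b are the farthest apart, with Gdpd3 at 25.7 to 41.4 CPM in MyTrMaSt against 0.844 to 2.71 CPM in WT.

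Genes known to differ between C57BL/6 substrains were looked up, since WT mice were of a named substrain and the background of the null mice is not given. Nnt, the mitochondrial nicotinamide nucleotide transhydrogenase, is known to lack exons in C57BL/6J. It was at 13.5, 22.4 and 27 CPM in WT + PBS and at 12.8, 7.66 and 12 CPM in MyTrMaSt + PBS. The groups did not overlap, but only WT + PBS replicate 1 came close to the MyTrMaSt libraries. Its log2 fold change was -1.03 (edgeR adjusted p = 0.129), -1.21 without that library (adjusted p = 0.0386) and -1.46 in the CBE libraries (adjusted p = 0.00319). With the Xist level as a covariate it was -0.42 (adjusted p = 0.711). Gabra2, a GABA-A receptor subunit whose level is known to be lowered in C57BL/6J by an intronic deletion, was at 3.61, 21.8 and 19.8 CPM in WT + PBS and at 8.45 to 10.7 CPM in MyTrMaSt + PBS. Its log2 fold change was -0.77 (edgeR adjusted p = 0.306). Without replicate 1, which was below all the MyTrMaSt libraries, it was -1.09 (adjusted p = 0.0801), and after CBE it was -2.31 (adjusted p = 0.000285). With the Xist covariate it was -0.57 (adjusted p = 0.732). Cyfip2, Wdfy1, Ide and Fgfbp3, of the same list, had log2 fold changes of 0.1 to 0.27, or -0.18 to 0.18 without replicate 1, and did not pass the test in either fit.

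Gdpd3 and Slx1b lie 76.9 kb apart on chromosome 7, which holds none of the deleted genes, and differed in opposite directions. Gdpd3 (chr7:126766334-126775649), a phospholipase of the glycerophosphodiester phosphodiesterase family, was at 2.71, 1.38 and 0.844 CPM in WT + PBS and at 41.4, 37.2 and 25.7 CPM in MyTrMaSt + PBS. Every MyTrMaSt library was far above every WT library, 23.8-fold in the fit (log2 fold change 4.57, SE 0.34, edgeR adjusted p = 6.34e-07), and 4.84 on the log2 scale without WT + PBS replicate 1. Slx1b (chr7:126689468-126695784), the catalytic subunit of a structure-specific DNA endonuclease, had 26, 53 and 31 counts in WT + PBS and 3, 0 and 1 counts in MyTrMaSt + PBS. It was at least 17.7-fold lower, set against 3 counts per MyTrMaSt library (edgeR adjusted p = 0.000149, and 2.74e-05 without WT + PBS replicate 1). Both differences were met again in the CBE libraries, with a log2 fold change of 3.73 for Gdpd3 (edgeR adjusted p = 2.74e-08). Slx1b had 0 to 2 counts in the MyTrMaSt + CBE libraries and was at least 12.2-fold lower than in WT + CBE, against the same floor (adjusted p = 1.03e-06).

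Of the 22 other tested genes between them or up to 10 places to either side, 0 had an edgeR adjusted p below 0.05. Over all tested genes 0.192% did so, and at that share 0 of 22 does not set the stretch apart. The lowest adjusted p was 0.0647, for Ypel3, and the log2 fold changes of the 22 ran from -1.19 to 0.23. Without WT + PBS replicate 1, Ypel3 passed (log2 fold change -0.71, adjusted p = 0.0386). This stretch was chosen after the values of the pair were seen. The exons of Slx1b overlap those of Bola2 on the opposite strand and those of Gm6939, which was not tested, on the same strand, and the use of strand in counting is not stated. Bola2 was at 497, 146 and 143 CPM in WT + PBS and 101, 143 and 91.9 CPM in MyTrMaSt + PBS (a log2 fold change of -1.19, edgeR adjusted p = 0.151, and -0.37 without replicate 1). The exons of Gdpd3 overlap those of Gm9967, which was not tested.

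Reads were counted for each of the 4 targeted genes in the null mice. Myd88 was at 17.1, 9.95 and 13.1 CPM in WT + PBS and at 3.11, 4.49 and 4.23 CPM in MyTrMaSt + PBS, with no overlap (log2 fold change -1.66, edgeR adjusted p = 0.0603, and -1.51 with 0.0567 without replicate 1). Tmem173 was higher in each MyTrMaSt library, at 5.02 to 7.04 CPM against 0.902 to 2.49 CPM (log2 fold change 1.62, adjusted p = 0.101, and 1.45 with 0.166 without replicate 1), and its estimate in the CBE libraries was 0.33 (adjusted p = 0.965). Ticam1 (-0.41) and Mavs (-0.38) overlapped between genotypes. Reads of MARSseq lie at the 3' end of a transcript and do not test whether the deleted part is present.

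Most ISGs had estimates below 0, and few passed the test. Of 29 tested ISGs, 2 were lower at an adjusted p below 0.05 and 0 were higher, against 0.157% of all tested genes lower. The estimate was below 0 for 23 of the 29 and for 5725 of all 11439 tested genes (50%), and the median log2 fold change was -0.9 against 0 for all tested genes (also -0.9 with the 1 gene at or under 3 counts in each MyTrMaSt library at its bound and 4 genes at or under that floor in both groups left out). In 13 of the 29 the MyTrMaSt libraries all lay below the WT libraries, against 10.3% of all genes. Without WT + PBS replicate 1 the called ISGs were 3, beside 0.376% of all genes called in that fit, the median was -0.8 and 19 lay entirely below, against 14.6% of all genes.

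Oasl2 (chr5:114896936-114912234) was at 6.32, 4.97 and 6.33 CPM in WT + PBS and at 0.345, 1.06 and 0.704 CPM in MyTrMaSt + PBS. The genotypes were well apart at this low level (log2 fold change -2.88, SE 0.49, edgeR adjusted p = 0.0237), and remained so without replicate 1 (-2.85). Lgals3bp (chr11:118392751-118402092), a secreted galectin-binding glycoprotein, was at 18, 31.5 and 38.4 CPM in WT + PBS and at 9.67, 11.6 and 9.86 CPM in MyTrMaSt + PBS. It was lower in each MyTrMaSt library (log2 fold change -1.54, SE 0.22, adjusted p = 0.00538, and -1.73 without replicate 1), and WT + PBS replicate 1 was the WT library nearest to them.

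Several well-known ISGs had large estimates that missed the threshold. Isg15 was at 21.7, 7.74 and 8.86 CPM in WT + PBS and at 1.04, 2.64 and 3.17 CPM in MyTrMaSt + PBS (log2 fold change -2.25, edgeR adjusted p = 0.0647, and -1.82 with 0.0625 without replicate 1). Irf7, the transcription factor that amplifies interferon production, was at 16.2, 8.57 and 7.17 CPM against 1.04, 1.06 and 3.52 CPM (-2.4, adjusted p = 0.0672, and -2.13 with 0.0696 without replicate 1). Both were separated in all libraries, with WT + PBS replicate 1 the highest. Ifit1, with the motif matches shown above, was at 0.902 CPM in that replicate and 7.18 and 5.06 CPM in the other WT libraries, and at 1.38, 0.793 and 3.52 CPM in MyTrMaSt, so the groups overlapped (-1.51, adjusted p = 0.173, and -1.79 with 0.0953 without replicate 1). Rtp4, a chaperone of membrane receptors, had an adjusted p of 0.0749 (-1.7) and passed without replicate 1 (-1.77, adjusted p = 0.0464). Rsad2 was at or below 1.38 CPM in every library and had an estimate of 0.31 (adjusted p = 0.849).

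**Figure D2:**
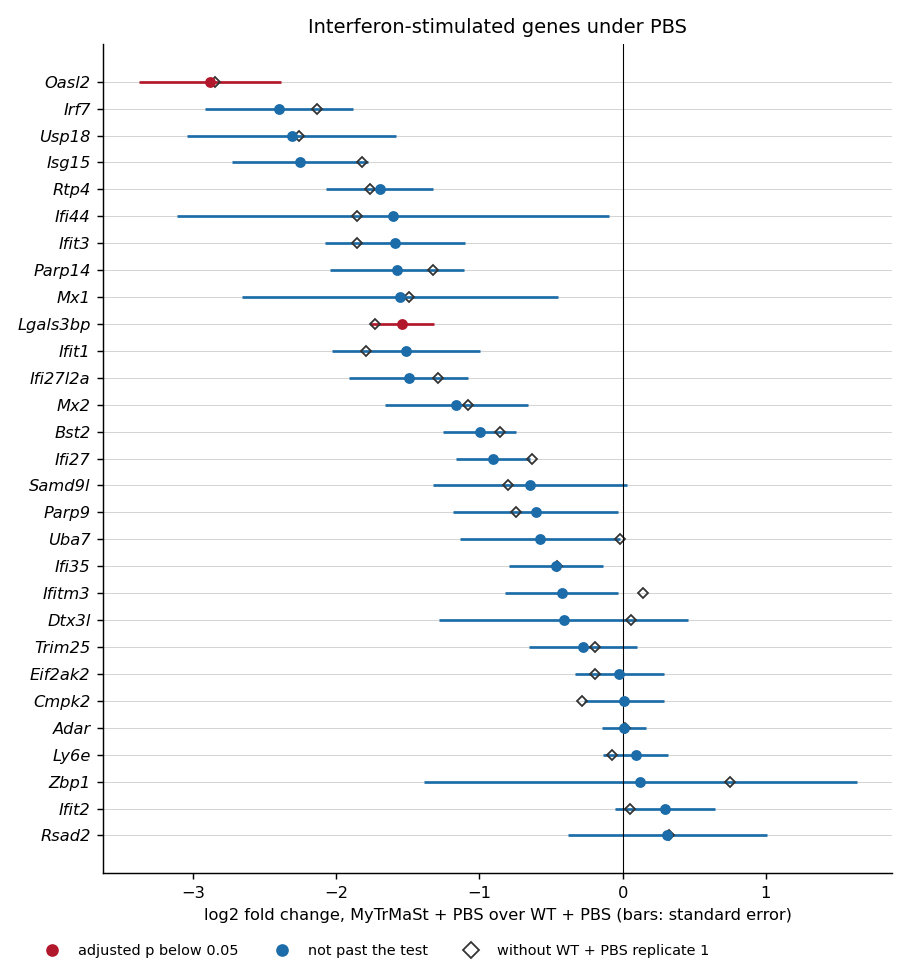
Log2 fold change of MyTrMaSt + PBS over WT + PBS with its standard error for the 29 tested ISGs, and the same estimate without WT + PBS replicate 1 as open diamonds. The estimates are below 0 for 23 genes, and Oasl2 and Lgals3bp, in red, passed the test.

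Of 17 tested genes of MHC class I presentation, 1 was lower and 0 were higher, beside 0.157% and 0.035% of all tested genes. The estimate was below 0 for 13 of the 17, beside 50% of all genes, and the median was -0.29. Without WT + PBS replicate 1 the called genes were 2, both lower, beside 0.376% of all genes called in that fit, the median was -0.47 and 8 of the 17 lay entirely below WT, beside 14.6% of all genes. H2-K1 (chr17:33996017-34000347), a class I heavy chain that presents peptides to T cells, was at 75.8, 48.6 and 57 CPM in WT + PBS and at 16.2, 24 and 18.3 CPM in MyTrMaSt + PBS, 3.01-fold lower (log2 fold change -1.59, SE 0.22, edgeR adjusted p = 0.0028, and -1.42 without replicate 1). H2-D1, another heavy chain, was at 140 to 163 CPM against 100 to 106 CPM, separated in all libraries but with an adjusted p of 0.117 (-0.54). B2m, the light chain, was at 4.51, 140 and 152 CPM in WT + PBS and at 80.1, 106 and 83.1 CPM in MyTrMaSt + PBS. Its log2 fold change was -0.2 (adjusted p = 0.858) with WT + PBS replicate 1 and -0.7 (adjusted p = 0.0285) without it.

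The remaining parts of the pathway held no called gene in the reported edgeR fit. Over all tested genes the share called was 0.192%, so 0 calls in lists this short does not set them apart. The pattern recognition receptors (10 tested, median -0.5, or -0.32 with 3 genes at their bound and 1 at or under the floor in both groups left out), the adaptor-proximal kinases and transcription factors (16, median 0.05), the interferon receptors and ISGF3 subunits (11, median 0.12), the interferon-inducible GTPases (9, median -0.08), the chemokines (13, median -0.51) and the NF-kappaB target genes (11, median -0.03) had 0 members with an edgeR adjusted p below 0.05. At an unadjusted p below 0.05, 3 chemokines, 2 GTPases, 1 NF-kappaB target and 1 gene of the receptor and ISGF3 list were lower, beside 10.9% of all tested genes, and 1 kinase or factor was higher, beside 5.93%. Of the 10 pattern recognition receptors, 9 had an estimate below 0, beside 50% of all genes, and 3 lay entirely below WT, beside 10.3%. Without WT + PBS replicate 1 these lists again gave 0 calls, beside 0.376% of all genes called in that fit. The median was then -0.69 for the pattern recognition receptors (6 of 10 entirely below WT, beside 14.6% of all genes). It was 0.01 for the kinases and factors, 0.03 for the interferon receptors and ISGF3, -0.36 for the GTPases, -0.28 for the chemokines and -0.24 for the NF-kappaB targets. Ccl5, a chemokine that draws T cells, was at 5.41, 4.7 and 4.22 CPM in WT + PBS and 1.38, 0.528 and 1.76 CPM in MyTrMaSt + PBS, without overlap (log2 fold change -1.96, adjusted p = 0.0994, and -1.92 with 0.0966 without replicate 1). Ccl5 passed in 2 of the 15 alternative fits that tested it, and Nfkbia, an NF-kappaB target, in 1 of 16. Irf3, which the deleted adaptors activate, was at 30.8 to 44.2 CPM against 32.5 to 37.3 CPM, and Ifnar1, a subunit of the interferon receptor, at 23.6 to 28.2 CPM against 25.2 to 27.5 CPM. The ranges overlapped for both, though for Irf3 only through WT + PBS replicate 1 (44.2 CPM), the other WT libraries being at 30.9 and 30.8 CPM, and its log2 fold change without that library was 0.15 (adjusted p = 0.834).

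**Figure D3:**
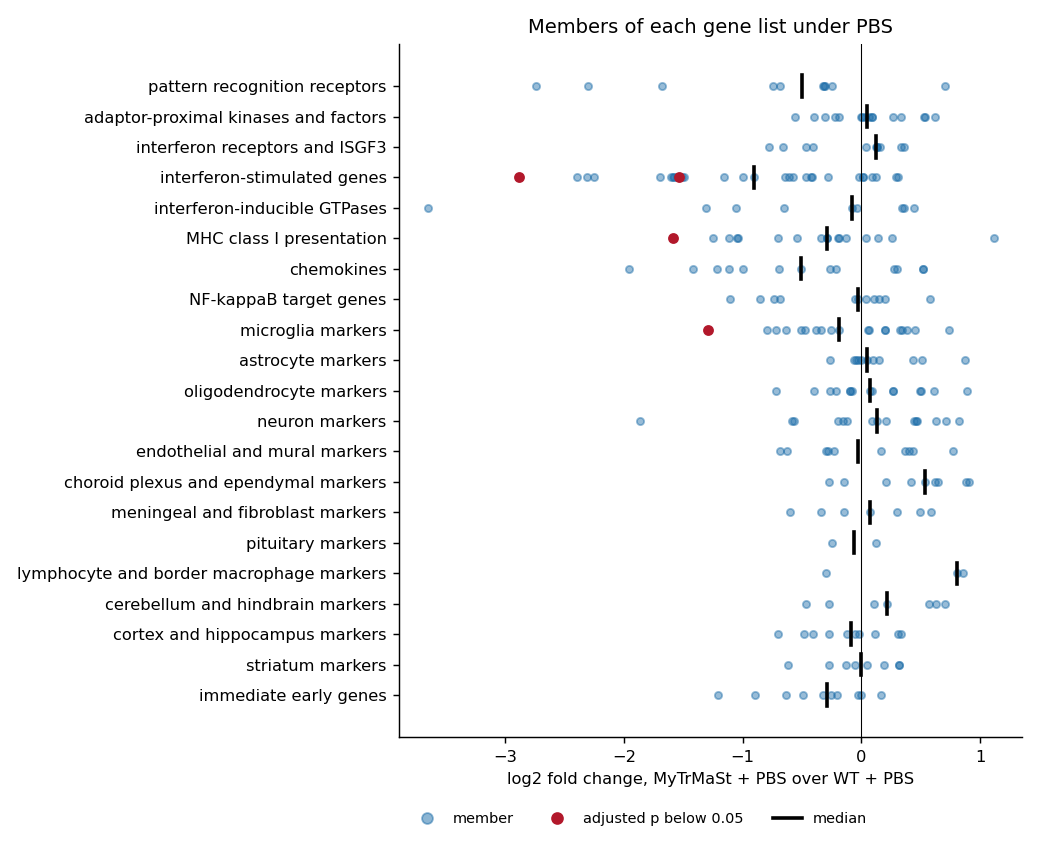
Log2 fold change of MyTrMaSt + PBS over WT + PBS for each tested member of the pathway and marker lists, with list medians as black bars and genes of adjusted p below 0.05 in red. The ISG median lies at -0.9, and the red points are Oasl2 and Lgals3bp (ISGs), H2-K1 (MHC class I) and Trem2 (microglia).

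Among cell type markers 1 of the 19 of microglia passed and 0 of the others, beside 0.192% of all tested genes. The gene was Trem2 (chr17:48346401-48354147), a lipid-sensing receptor of microglia. It was at 74, 43.4 and 39.2 CPM in WT + PBS and at 20, 19.3 and 22.5 CPM in MyTrMaSt + PBS, 2.45-fold lower (log2 fold change -1.29, SE 0.21, edgeR adjusted p = 0.0114), and -1.02 without replicate 1 (adjusted p = 0.00357). The summed level of the 19 microglia markers was 966 to 1282 CPM in WT + PBS and 818 to 862 CPM in MyTrMaSt + PBS, again without overlap, while the median of their log2 fold changes was -0.19 (-0.12 without replicate 1), with 10 of 19 below 0 and 9 above. At an unadjusted p below 0.05, 7 of the 19 were lower and 0 higher, beside 10.9% and 5.93% of all tested genes, and 5 lay entirely below WT, beside 10.3%. Without WT + PBS replicate 1, which had the highest sum (1282 CPM), 7 lay entirely below WT and 2 entirely above, beside 14.6% and 15.2% of all genes. In bulk tissue, fewer microglia and less RNA per microglial cell cannot be told apart. Tyrobp, the signalling partner of Trem2, was at 60.3 to 111 CPM against 43.2 to 61.6 CPM (log2 fold change -0.48, adjusted p = 0.252). C1qa, a complement subunit made by microglia, was at 163 to 322 CPM against 127 to 137 CPM (-0.72, adjusted p = 0.139). Tmem119, a marker of resident microglia, overlapped between genotypes (-0.34, and -0.12 without replicate 1). Estimates above 0 were found for P2ry12, a purinergic receptor of resident microglia (0.74, adjusted p = 0.323), and for Cx3cr1, the fractalkine receptor (0.34, adjusted p = 0.583). WT + PBS replicate 1 was low for both, at 2.71 CPM against 30.1 to 48.3 CPM for P2ry12 and at 6.32 CPM against 26.2 to 29.3 CPM for Cx3cr1, and without it the estimates were 0.36 and 0.04.

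The markers of astrocytes (11 tested), oligodendrocytes (15), neurons (15), endothelial and mural cells (10), choroid plexus and ependyma (9), meninges (7), pituitary (2), lymphocytes and border macrophages (3), cerebellum and hindbrain (7), cortex and hippocampus (10) and striatum (8) and the immediate early genes (10) gave 0 calls in the edgeR test. That is near the share called over all tested genes, 0.192%. Of the 107 genes, 10 were higher and 11 lower at an unadjusted p below 0.05, beside 5.93% and 10.9% of all tested genes. Choroid plexus markers had the highest median of the lists with more than 5 tested genes (0.53), but their summed level ran from 1297 to 3431 CPM in WT + PBS and from 2604 to 4291 CPM in MyTrMaSt + PBS. The groups overlapped through WT + PBS replicate 1 (3431 CPM), the other WT libraries being at 2421 and 1297 CPM, below every MyTrMaSt library. Without that replicate 0 of the 9 estimates were below 0, the median was 0.6 and 6 of 9 lay entirely above WT, beside 15.2% of all genes, with 0 calls. With all libraries and the Xist level as a covariate, Ttr was at -0.14, Folr1 at -0.31 and Kl at 1.35, against 0.42, 0.65 and 0.89 without it. Immediate early genes, which neuronal activity raises, summed to 957 to 1131 CPM in WT + PBS and 879 to 921 CPM in MyTrMaSt + PBS, and 9 of 10 had an estimate below 0 (median -0.29). With all libraries 3 of 10 lay entirely below WT, beside 10.3% of all genes. With the Xist covariate Fos, Fosb and Junb were at 0.1, 0.71 and 0.26, against -0.32, -1.21 and -0.01 without it. Without replicate 1, 9 of the 10 estimates were below 0 (median -0.25) and 6 of 10 lay entirely below WT, beside 14.6% of all genes. In that fit, where 0.376% of all genes passed, Arc of that list (log2 fold change -0.79, edgeR adjusted p = 0.0358) and Camk2a of the cortex list (-0.74, adjusted p = 0.048) were lower. With all libraries neither passed (adjusted p = 0.144 and 0.101).

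Ppdpf, Cd59a and Wwox also differed in both the PBS and, by estimate, the CBE libraries. Ppdpf (chr2:181187247-181188771), named for pancreatic progenitor cells, was at 63.2, 22.4 and 30.4 CPM in WT + PBS and at 6.56, 5.55 and 7.75 CPM in MyTrMaSt + PBS, 5.48-fold lower (log2 fold change -2.46, SE 0.38, edgeR adjusted p = 0.00918, and -1.99 without replicate 1). Cd59a (chr2:104095801-104115354), an inhibitor of the complement attack complex, was at 10.8, 20.2 and 16 CPM in WT + PBS and at 40.7, 49.9 and 38 CPM in MyTrMaSt + PBS, 2.6-fold higher (log2 fold change 1.38, SE 0.22, adjusted p = 0.0114, and 1.22 without replicate 1). Wwox (chr8:114439655-115352708), an oxidoreductase with WW domains, was at 16.2, 14.9 and 14.8 CPM against 30, 35.9 and 31 CPM, a narrow spread within each genotype (1.09, SE 0.2, adjusted p = 0.03, and 1.12 without replicate 1).

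Genes near the deleted ones were examined as well, because DNA next to a targeted gene can stay of the donor strain after crossing. Among up to 100 genes of the table to either side, the test called 2 of 135 around Myd88, 1 of 164 around Ticam1, 0 of 171 around Mavs and 0 of 168 around Tmem173, all lower, beside 0.157% of all tested genes called lower. Without WT + PBS replicate 1 the counts were 2, 1, 1 and 0, beside 0.376% of all genes called in that fit, the gene near Mavs being B2m, at -9.09 Mb. At an unadjusted p below 0.05, 8 neighbours of Myd88 were higher and 16 lower, 4 of Ticam1 were higher and 27 lower, 17 of Mavs were higher and 17 lower, and 20 of Tmem173 were higher and 5 lower, beside 5.93% and 10.9% of all tested genes. The median log2 fold changes were -0.02 (Myd88), -0.13 (Ticam1), 0.1 (Mavs) and 0.2 (Tmem173), and without WT + PBS replicate 1 they were -0.01, -0.04, 0.09 and 0.09. The genes called with all libraries were Lars2, 4.03 Mb from Myd88, 4930526I15Rik, 5.09 Mb from Myd88, and Trem2, at -7.92 Mb from Ticam1. Lars2 (chr9:123366927-123462666), the mitochondrial leucyl-tRNA synthetase, was at 63.2, 23.5 and 15.6 CPM in WT + PBS and at 4.83, 7.4 and 7.4 CPM in MyTrMaSt + PBS (log2 fold change -2.23, SE 0.4, edgeR adjusted p = 0.0295), and at -1.6 without replicate 1, where it was highest. 4930526I15Rik, a non-coding RNA, was at 74, 41.4 and 43 CPM against 18.8 to 22.4 CPM (-1.29, adjusted p = 0.03, and -1.02 without replicate 1), and its span overlaps exons of Ppp2r3d, which was at 4.64 to 5.41 CPM against 9.77 to 16.2 CPM (1.36, adjusted p = 0.099).

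**Figure D4:**
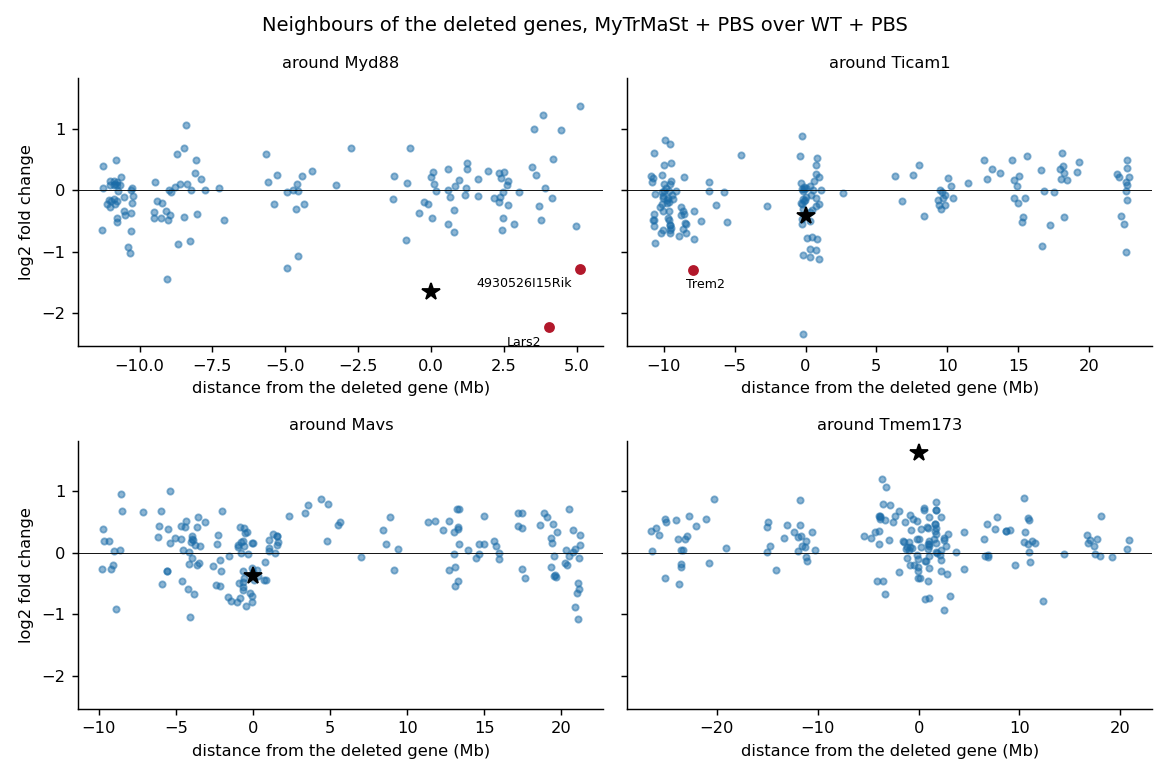
Log2 fold change of MyTrMaSt + PBS over WT + PBS for tested genes up to 100 places from each deleted gene, against distance in Mb. Stars mark the deleted genes (Myd88 -1.66, Ticam1 -0.41, Mavs -0.38, Tmem173 1.62), and red points the genes with adjusted p below 0.05, which are named.

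The other 7 DEGs are known from neurons or have a less certain role, and all were lower in MyTrMaSt + PBS. They were Apbb1, an adaptor that binds the amyloid precursor protein, Mapk8ip3, a scaffold that links JNK kinases to axonal transport, Hrh3, a histamine receptor, Unc5a, a netrin receptor, Ly6h, a membrane-anchored protein that modulates nicotinic receptors, Zmiz2, a transcriptional coactivator, and Tmem121. Their log2 fold changes ran from -1.31 for Apbb1 to -1.01 for Tmem121, with edgeR adjusted p of 0.03 to 0.0403. Apbb1 was at 1121, 524 and 468 CPM in WT + PBS and at 213, 310 and 327 CPM in MyTrMaSt + PBS. WT + PBS replicate 1 was the highest library for all 7, and without it the log2 fold changes were between -0.99 and -0.82, all still past the test and under 2-fold. Of the 3 genes past the test but under 2-fold, which are named after their values were seen, Cdk5r2 (an activator of the kinase Cdk5, -0.94), Sncb (beta-synuclein, -0.81) and Ak1 (an adenylate kinase, -0.95) were lower too.

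In the CBE libraries, which share no mouse with the PBS libraries, 9 of the 19 DEGs passed the same edgeR test with the same sign, where 1.73% of all tested genes did so and 2.36% passed as lower with either sign under PBS, and 14 had the same sign. A fit to the 8 CBE libraries alone gave 10 of 19, and so did a fit to the 6 CBE libraries of 1 sex, which compares the genotypes without the difference in Xist. Among the 9 genes were Gdpd3, Slx1b, H2-K1, Lgals3bp, Oasl2, Ppdpf, Trem2 and Wwox, and Lars2 was the gene added in both other fits. Mean levels rose from WT + PBS to WT + CBE for H2-K1 (60.5 to 466 CPM), Lgals3bp (29.3 to 427), Oasl2 (5.87 to 91.5) and Trem2 (52.2 to 305). For such genes a baseline difference met again cannot be told apart from a genotype difference in the response to CBE. Ppdpf was at 21.6 to 28.3 CPM in WT + CBE and 2.84 to 10.2 CPM in MyTrMaSt + CBE (a log2 fold change of -1.89, adjusted p = 0.00248), and Wwox at 13.7 to 16.3 CPM and 22.2 to 34.4 CPM (0.95, adjusted p = 0.00515). Trem2 was at 287 to 336 CPM and 167 to 203 CPM (-0.74, adjusted p = 0.0102). In none of these 3 did the genotypes overlap. Cd59a had an estimate of 0.61 (adjusted p = 0.161), and 32 to 45.8 CPM in MyTrMaSt + CBE against 22.1 to 28.9 CPM in WT + CBE.

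The 7 DEGs named above as neuronal or less certain did not pass the test in the CBE libraries. Their log2 fold changes in the CBE libraries lay between -0.17 and 0.2, with edgeR adjusted p of 0.967 to 1. Apbb1 was at 372 to 375 CPM in WT + CBE and 351 to 466 CPM in MyTrMaSt + CBE, values that lie between those of the 2 PBS groups. The genotype difference itself differed between treatments, by an interaction at an adjusted p below 0.05, for 2 of the 7 (Tmem121, adjusted p = 0.0409, and Zmiz2, 0.0428), and not for Apbb1 (0.0758), Mapk8ip3 (0.0609), Hrh3 (0.1), Unc5a (0.14) or Ly6h (0.198). The interaction passed for 4 of the 7 when WT + PBS replicate 1 was left out (edgeR adjusted p = 0.0174 for Apbb1, 0.0224 for Zmiz2, 0.0249 for Tmem121 and 0.0343 for Mapk8ip3), and not for Hrh3 (0.0717), Unc5a (0.108) or Ly6h (0.214). The interaction was then 0.96 for Apbb1, against 1.46 with all libraries, and 1.01 for Zmiz2, against 1.24. These 7 genes were chosen for their PBS difference, which is also part of the interaction, so it is no separate test of them. Over all tested autosomal genes, 57 passed the interaction with all libraries and 104 without WT + PBS replicate 1.

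Oasl2, Lgals3bp and H2-K1 differed more after CBE. Oasl2 had a log2 fold change of -6.88 there against -2.88 under PBS (interaction -4, edgeR adjusted p = 0.0406), Lgals3bp -3.22 against -1.54 (interaction -1.68, adjusted p = 0.00683) and H2-K1 -3.31 against -1.59 (interaction -1.72, adjusted p = 0.00523). These interactions were -4.05, -1.5 and -1.9, with edgeR adjusted p of 0.0246, 0.000776 and 0.000186, when WT + PBS replicate 1 was left out. The mean level of H2-K1 was 60.5 CPM in WT + PBS and 466 CPM in WT + CBE, and 19.5 CPM in MyTrMaSt + PBS and 47.1 CPM in MyTrMaSt + CBE. For Oasl2 it was 5.87 CPM in WT + PBS and 91.5 CPM in WT + CBE, and 0.702 and 0.75 CPM in the MyTrMaSt groups. The MyTrMaSt libraries held 1 to 4 counts of Oasl2 after PBS and 0 to 4 after CBE, so its values were fitted near the floor.

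**Figure D5:**
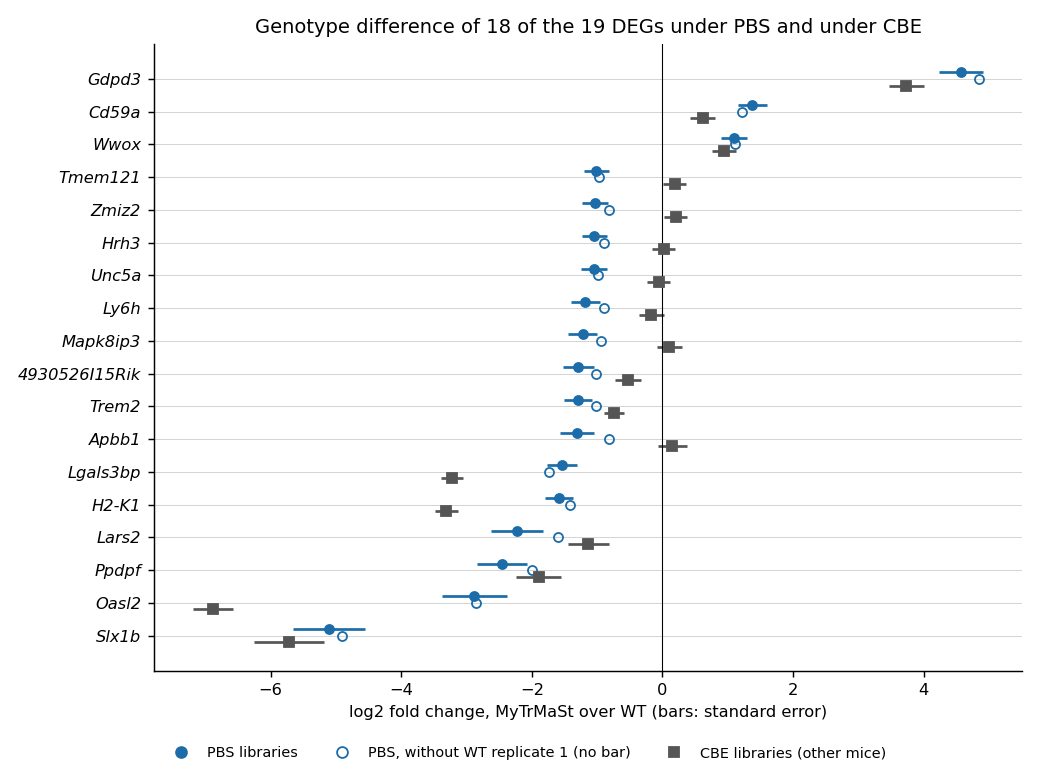
Log2 fold change of MyTrMaSt over WT for 18 of the 19 DEGs in the PBS libraries (filled circles, with standard error), in the PBS libraries without WT replicate 1 (open circles) and in the CBE libraries (squares, with standard error). The squares of Apbb1, Mapk8ip3, Hrh3, Unc5a, Ly6h, Zmiz2 and Tmem121 lie near 0, from -0.17 to 0.2. The points of Slx1b are fitted values against counts at or under 3, and those of Oasl2 against counts at or under 4.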

How the data were processed

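Hemibrain RNA was made by the authors into bulk MARSseq libraries, which read transcript 3' ends, and sequenced on a NextSeq 500. Alignment to mm10 used hisat 0.1.6, with uniquely mapped reads kept. The submitters' processing notes name cutadapt and HTSeq. Annotation, strandedness and any counting of molecular identifiers are not given in the sources used here. The deposited counts are whole numbers for each gene, and 22 listed names are dates and were not assigned to genes. The deposited normalized table and the authors' fold changes of CBE over PBS with their p-values were not used. One deposited count (Gnas in a WT + CBE library) is a rounded number.

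Counts were tested in R 4.3.3 with edgeR 4.0.16 (filterByExpr, TMM, quasi-likelihood fit of 4 group means to all 14 libraries, Benjamini-Hochberg over 11852 genes). The DEG thresholds were a 2-fold difference and an adjusted p of 0.05. CPM values use TMM-scaled totals. Positions are from GENCODE vM21 on mm10 and RefSeq. Libraries are separate mice, and depth limits low genes, where 3 counts were taken as the floor. Alternatives were RLE factors, DESeq2 1.42.0, voom of limma 3.58.1 plain or with sample weights, other filters, other sets of libraries, a replicate block, an Xist covariate and leaving out each library. The procedure was tested on simulated counts with the same spread for every gene and no outlying library. Such counts cannot test the effect of a library like WT + PBS replicate 1. The genes named are the 4 deleted genes, all DEGs, list members and neighbours past the test, the substrain genes and the first 3 tested members of each other list, and Bola2, Ypel3, Ppp2r3d, Rtp4, Rsad2, Tyrobp, C1qa, Arc, Camk2a, Cdk5r2, Sncb and Ak1 were named after their values were seen. Some items, including 1 of the DEGs, are counted but not reported here. The comparison, gene lists and tests were chosen with earlier results of these data known.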

Additional observations from a re-analysis of the deposited data

Results flagged for a closer look

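Genotype differences were larger after CBE than after PBS for several immune genes, by the interaction contrast of the edgeR model at an adjusted p below 0.05. On the log2 scale, the difference under CBE minus that under PBS was -5.53 for Ifit1, -4.89 for Ccl5, -4.7 for Cxcl10, -4.56 for Gbp2, -4.05 for Isg15, -4 for Oasl2 and -3.59 for Irf7. It was -2.95 for Igtp, -2.65 for Irgm1, -2.16 for H2-D1, -1.72 for H2-K1 and -1.68 for Lgals3bp. The opposite sign was found for Zmiz2 (1.24), Tmem121 (1.2), Cdk5r2 (1.15) and Sncb (0.95), which were lower in MyTrMaSt under PBS and not under CBE. They were named for their PBS difference, which is also part of this contrast. WT + PBS replicate 1 was far from the other WT + PBS libraries for some of these genes, with Isg15 at 21.7 CPM against 7.74 and 8.86, Ifit1 at 0.902 against 7.18 and 5.06, and Gbp2 at 0 against 3.32 and 4.22. Without it, an alternative chosen after seeing the data, all 16 genes kept their sign and an edgeR adjusted p below 0.05, from 9.9e-07 for H2-D1 to 0.0249 for Tmem121. The interaction was then -5.26 for Ifit1, -4.28 for Gbp2, -4.5 for Isg15 and 1.01 for Zmiz2. The count of autosomal genes past the interaction test was 57 with all libraries and 104 without that library. In the MyTrMaSt + CBE libraries Ifit1 had 1 to 6 counts, Ccl5 0 to 5, Oasl2 0 to 4 and Isg15 1 to 8. Their values were thus fitted near the floor.

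Xist, outside the autosomal comparison, had at least 32 counts in each MyTrMaSt + PBS library and 0 in each WT + PBS library.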

How the results depend on the processing

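The reported fit gave 19 DEGs (4 higher, 15 lower), 22 genes past the test and 5 calls among list members, and RLE factors and no filter on low counts gave the same counts. DESeq2 gave 109 DEGs (10 higher, 99 lower), 255 genes past the test (39 higher, 216 lower) and 28 list members, with 18 of the 19 DEGs among its DEGs and no adjusted p given for Slx1b. Voom with sample weights gave 7 higher DEGs, 54 genes past the test (14 higher, 40 lower) and 14 list members. With at least 10 counts in every library, which left 8061 genes, 11 were DEGs (2 higher, 9 lower). In that fit 2 genes were higher past the test and 3 list members were called. Slx1b, Gdpd3, Oasl2 and Ppdpf were among the DEGs that this threshold left untested. Of the 19 DEGs, 14 still passed the test, and 10 of them still differed at least 2-fold. Only the 6 PBS libraries gave 2 DEGs (2 higher, 0 lower), the same 2 past the test and 1 list member, with 855 genes at an unadjusted p below 0.05. The Xist covariate gave 3 DEGs (2 higher, 1 lower), the same 3 past the test and 1 list member. The test against 2-fold gave 3 (2 higher, 1 lower). The 6 PBS libraries without WT + PBS replicate 1, an alternative chosen after seeing the data, gave 17 DEGs and 8 list members.

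Leaving out 1 library gave 5 to 294 DEGs (2 to 59 higher, 3 to 235 lower), 5 to 453 genes past the test (2 to 90 higher, 3 to 363 lower) and 3 to 22 list members, the highest without WT + PBS replicate 2. The cause was not tested.

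Replicate numbers are shared between the groups, and the deviations of same-numbered libraries correlated at 0.173, -0.0931 and 0.167, so the numbers were not taken to pair mice. A replicate block on the 6 PBS libraries gave 2 DEGs (2 higher, 0 lower), 2 past the test and 1 list member.

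Among the genes named by the rule and Cdk5r2, Sncb and Ak1, but not the others named after their values were seen (such as Ypel3, Rtp4, Arc and Camk2a, which passed without WT + PBS replicate 1), no alternative changed the sign of a called gene, and over all their values and alternatives 1177 kept their side of the threshold and direction, 114 lost a call, 20 gained one and 99 estimates that passed no test changed sign. Depth limits genes under about 3 counts per library, such as Rsad2 and Ifih1.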

Other observations

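Leaving out WT + PBS replicate 1 brought 21 more autosomal genes past the edgeR test, 7 of them higher in MyTrMaSt + PBS. The higher genes, named after their values were seen, include Cox6c (0.63) and Ndufb3 (0.73), both subunits of respiratory complexes, the ribosomal protein gene Rpl35 (0.83) and the spliceosome gene Snrpe (0.79). The lower genes include Mt3 (-1), a brain metallothionein, Islr2 (-1.05), Meis3 (-1.15) and Arhgap32 (-1.21). All values are log2 fold changes without that library, with edgeR adjusted p of 0.0147 to 0.048.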
